A study of Mus musculus with 8 samples.

Results

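The genes described here are the 10 core and output genes of the circadian clock that were listed by symbol for this purpose, Arntl, Clock, Npas2, Per1, Per2, Per3, Cry1, Cry2, Nr1d1 and Dbp, and all 10 were found among the 32285 genes of the count tables. In this clock, Arntl (also called Bmal1) pairs with Clock or with its paralog Npas2 on E-box sequences and turns on the period genes (Per), the cryptochromes (Cry), Nr1d1 and Dbp. Period and cryptochrome proteins then block that activator, Nr1d1 (REV-ERB alpha) represses Arntl through response elements shared with the ROR receptors, and Dbp acts on D-box sequences. In most tissues Arntl and Npas2 peak at the opposite phase to Per, Nr1d1 and Dbp, and glucocorticoids, temperature and, for Per1, neuronal activity can shift or induce clock genes.

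Nuclei came from punches of the left anterior hippocampus (HIP) and the left caudate putamen (CP) of C57BL/6JN mice, an inbred strain, at 3 or 21 months of age, with no treatment named in the labels. There were 2 libraries in each of the 4 groups, 8 in all, and each library mixed equal numbers of sorted nuclei from 1 male and 1 female of the same age. The labels give no time of collection, and they leave unsaid if any mouse gave tissue to libraries of both regions. Nothing says that the libraries of a group were made in separate sessions, so p-values measure only the spread between these libraries, and sex, collection time and any other property of the 2 pooled animals cannot be told apart within a library.

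After filtering, 97831 nuclei remained of 109826 barcodes, with 6382 to 17033 per library, a median depth of 6685.5 to 11266 unique molecular identifiers (UMIs) per nucleus, and 67205436 to 234811422 UMIs per library. Between 17 and 76 barcodes were shared by any pair of libraries. Marker genes gave the clusters their X-like names, in 11 classes in the hippocampus and 10 in the caudate putamen, and nuclei in clusters without a name made up 10.4% and 2.77%. Dentate granule-like nuclei carried the granule markers Trpc6 at 574 CPM (counts scaled to 1000000 UMIs), against 16.6 to 53.0 CPM in hippocampal glia-like and endothelial-like nuclei, and Prox1 at 281 CPM, against 236 CPM in oligodendrocyte-like nuclei. Other listed granule markers set them apart unevenly. Dsp stood at 52.6 CPM, against 2.52 to 7.64 CPM, and Glis3 at 825 CPM, against 799 CPM in astrocyte-like nuclei. C1ql2 was lower in granule-like (19.0 CPM) than in oligodendrocyte-like (22.8 CPM) and microglia-like nuclei (24.4 CPM). D1-like and D2-like medium spiny neurons carried the striatal gene Rgs9 at 1099 CPM, against 125 to 313 CPM in glia-like and endothelial-like nuclei of that region. The listed marker Ppp1r1b stood at 74.7 CPM, against 32.5 to 71.7 CPM in those nuclei. Counts were summed per class and library, and levels are given as CPM of that sum. UMIs of a class sum ranged from 145179 in mural-like nuclei to 99831693 in granule-like nuclei, so vascular values rest on few molecules. A count of 0 occurred for 2 of the values of a member in a class and library: Npas2 in hippocampal microglia-like nuclei of the second old library, where a count of 0 allows up to 5.35 CPM, and Cry1 in mural-like nuclei of the first old library, where it allows up to 12.7 CPM. These limits cover counting error only.

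Promoter windows were available for 9 of the 10 genes, in 13 windows of 300 bases, from 250 bases before to 50 bases after a RefSeq transcription start on GRCm38.p6. They were searched on both strands for the E-box (CACGTG), the D-box (TTATGNAA) and the core of the ROR response element (TAGGTNA), 3 motifs chosen after the sequences had been seen. Of 32851 windows of all genes, 7.15% held the E-box, 3.38% the D-box and 8.29% the ROR element core. Among the members, 4 genes held at least 1 of them, Arntl, Per1, Per3 and Cry1, and a window of each is shown because it held a motif. Whether the motifs go with the differences described below was not tested. Capitals mark the motifs.

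Arntl, chr7:113207261-113207560, plus strand, 2 ROR element cores: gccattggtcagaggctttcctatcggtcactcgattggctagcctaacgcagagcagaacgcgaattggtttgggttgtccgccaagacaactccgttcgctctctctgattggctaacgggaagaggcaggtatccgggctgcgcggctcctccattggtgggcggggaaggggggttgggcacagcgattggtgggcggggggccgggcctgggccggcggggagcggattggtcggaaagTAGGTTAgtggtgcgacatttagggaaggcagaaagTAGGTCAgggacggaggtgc

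Per1, chr11:69098699-69098998, plus strand, 1 E-box and 1 D-box: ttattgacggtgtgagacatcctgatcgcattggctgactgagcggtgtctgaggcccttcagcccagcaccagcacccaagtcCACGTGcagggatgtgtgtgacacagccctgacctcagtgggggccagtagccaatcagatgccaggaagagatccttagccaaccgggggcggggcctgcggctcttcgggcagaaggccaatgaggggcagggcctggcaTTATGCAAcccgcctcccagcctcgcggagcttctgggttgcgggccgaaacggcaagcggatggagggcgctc

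Per3, chr4:151044616-151044915, minus strand, 2 D-boxes: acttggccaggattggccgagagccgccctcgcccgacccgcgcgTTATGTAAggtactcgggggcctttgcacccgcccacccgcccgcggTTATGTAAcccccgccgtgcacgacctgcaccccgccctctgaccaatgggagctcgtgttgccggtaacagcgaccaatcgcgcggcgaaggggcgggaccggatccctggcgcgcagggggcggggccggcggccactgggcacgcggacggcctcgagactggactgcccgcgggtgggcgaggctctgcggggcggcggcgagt

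Cry1, chr10:85185005-85185304, minus strand, 1 E-box: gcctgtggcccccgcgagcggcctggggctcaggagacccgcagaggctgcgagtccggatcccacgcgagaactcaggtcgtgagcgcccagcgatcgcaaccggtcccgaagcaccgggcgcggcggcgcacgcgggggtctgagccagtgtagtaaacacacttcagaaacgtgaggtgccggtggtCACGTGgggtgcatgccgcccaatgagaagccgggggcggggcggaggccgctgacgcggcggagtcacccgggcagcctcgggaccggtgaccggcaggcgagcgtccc

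A match is a description of the letters in these windows and does not show binding. The windows of Clock, Npas2, Cry2, Nr1d1 and Dbp held none of the 3 motifs, and elements outside the windows were not searched.

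Of the activators, Npas2 is described first. The gene lies on chromosome 1 (GRCm38, 39193731 to 39363236, plus strand). In D2-like medium spiny neurons it reached 531 and 516 CPM in the young and 579 and 632 CPM in the old libraries, and in D1-like neurons 512 and 491 against 547 and 584 CPM. The 4 libraries of the next class, eccentric medium spiny neuron-like nuclei (279 to 362 CPM), lay below all of these. Astrocyte-like nuclei held 304 ± 67.2 CPM in the caudate putamen and 267 ± 45.4 CPM in the hippocampus (SD, n = 4 libraries of both ages). Hippocampal hilar mossy-like neurons held 221 ± 5.93 CPM and CA1-like neurons 138 ± 19.5 CPM, whereas granule-like neurons held 47.6 ± 6.22 CPM. Hippocampal oligodendrocyte-like (5.66 ± 1.37 CPM) and microglia-like nuclei (3.67 ± 2.74 CPM) held the least. The microglia-like value rests on 9 UMIs over the 4 libraries, with 1 library at 0.

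Arntl (chromosome 7, 113207465 to 113314126, plus strand) was highest in astrocyte-like nuclei of the hippocampus, at 246 and 186 CPM in the young and 206 and 220 CPM in the old libraries. All 4 lay above the next class, endothelial-like nuclei (119 to 157 CPM). Mossy-like (125 ± 5.35 CPM) and CA1-like neurons (125 ± 8.97 CPM, SD, n = 4) stood above the subiculum-like, CA3-like and granule-like neurons, which overlapped among themselves. In the caudate putamen the order was led by D2-like neurons (149 ± 26.3 CPM), and D1-like neurons, endothelial-like nuclei, eccentric-like neurons and astrocyte-like nuclei followed without a gap between neighbours. Clock (chromosome 5, 76209868 to 76304792, minus strand), the partner of Arntl in the activator, was the most even member, from 205 ± 16.7 CPM in hippocampal oligodendrocyte-like nuclei to 74.9 ± 5.09 CPM in hippocampal astrocyte-like nuclei. Astrocyte-like nuclei held the lowest Clock level in both regions, below all libraries of the next class, while their Npas2 level was among the highest.

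Among the ranked classes, astrocyte-like nuclei had the highest mean of 5 of the 6 repressors in the hippocampus and of 2, Cry2 and Per3, in the caudate putamen. The ranked classes differed: mural-like nuclei, which led for Per2 and Nr1d1 in the caudate putamen, were not ranked in the hippocampus. Their number there fell to 12 in the second old library, under the limit of 20. Cry2 (chromosome 2, 92403646 to 92434043, minus strand), a cryptochrome, measured 141 ± 4.71 CPM there in the hippocampus and 163 ± 13.7 CPM in the caudate putamen (SD, n = 4), and Per3 (chromosome 4, 151003652 to 151044665, minus strand), a period gene, 77.0 ± 11.3 and 96.9 ± 12 CPM. For both genes no library of any other ranked class reached the astrocyte-like values of its region. Per3 overlaps Camta1 on the same strand, where strand cannot tell their reads apart. Same-strand overlaps were also listed for Npas2 (Gm3617) and Clock (Ube2n-ps1 and Gm43658). How reads in such overlaps were counted is not given in the sources used here. Per2 (chromosome 1, 91415982 to 91459324, minus strand) was shared between astrocyte-like (40.3 ± 7.0 CPM) and oligodendrocyte precursor-like nuclei (39.8 ± 2.05 CPM) of the hippocampus, whose ranges overlapped, and was 4.85 ± 1.56 CPM in mature oligodendrocyte-like nuclei. In the caudate putamen Per2 was highest in mural-like nuclei (57.4 ± 12.3 CPM), whose range overlapped that of the precursors (46.4 ± 4.37 CPM), and the precursors stood above its oligodendrocyte-like nuclei (8.28 ± 0.761 CPM). Cry1 (chromosome 10, 85131700 to 85185064, minus strand) stayed between 5.33 ± 2.23 CPM in CA3-like neurons and 32.9 ± 24.8 CPM in caudate endothelial-like nuclei, with wide ranges in the vascular classes.

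Per1 (chromosome 11, 69095217 to 69109960, plus strand), a period gene that neuronal activity can induce, had no gap between neighbouring classes in either region. It was highest in D1-like neurons, with 38.8 and 59.8 CPM in the young and 45.4 and 56.4 CPM in the old libraries, and lowest in granule-like neurons of the hippocampus, with 6.39, 8.45, 6.67 and 7.15 CPM. Nr1d1 (chromosome 11, 98767932 to 98775333, minus strand), the repressor of Arntl, was highest in mural-like nuclei of the caudate putamen (42.2 ± 6.25 CPM) and in astrocyte-like nuclei of the hippocampus. It measured 31.6 ± 1.76 CPM in hippocampal astrocyte-like and 29.2 ± 9.73 CPM in hippocampal endothelial-like nuclei, above all libraries of the next class (mossy-like neurons, 10.4 ± 1.12 CPM, SD, n = 4). Nr1d1 overlaps Thra on the opposite strand, and whether the counting used strand is not given in the sources used here.

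The output gene Dbp (chromosome 7, 45705088 to 45710203, plus strand), which encodes a D-box binding transcription factor and overlaps Sphk2 on the opposite strand, was highest in mural-like nuclei of the caudate putamen, with 117, 56.9, 59.5 and 64.8 CPM, on 17 UMIs in the first young library. Astrocyte-like nuclei held 37.1 ± 5.00 CPM there and 23.2 ± 0.712 CPM in the hippocampus. Means over the neuron classes ran from 1.78 CPM (CA3-like) to 8.83 CPM (mossy-like) in the hippocampus and from 8.51 CPM (interneuron-like) to 24.1 CPM (D2-like) in the caudate putamen, a difference between cell types that was not tested. Levels of different genes were set side by side per kilobase of gene span, introns included. This scale assumes that intronic reads were counted, which the sources used here do not state, and the order of short and long genes rests on it. On it hippocampal astrocyte-like nuclei held 4.63 CPM of Cry2, 4.53 of Dbp, 4.27 of Nr1d1, 2.01 of Arntl, 1.57 of Npas2 and 0.290 of Cry1. In D1-like neurons the order on the same scale was Dbp (4.39), Per1 (3.4), Npas2 (3.15), Cry2 (2.56), Clock (1.57) and Arntl (1.18).

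**Figure D1:**
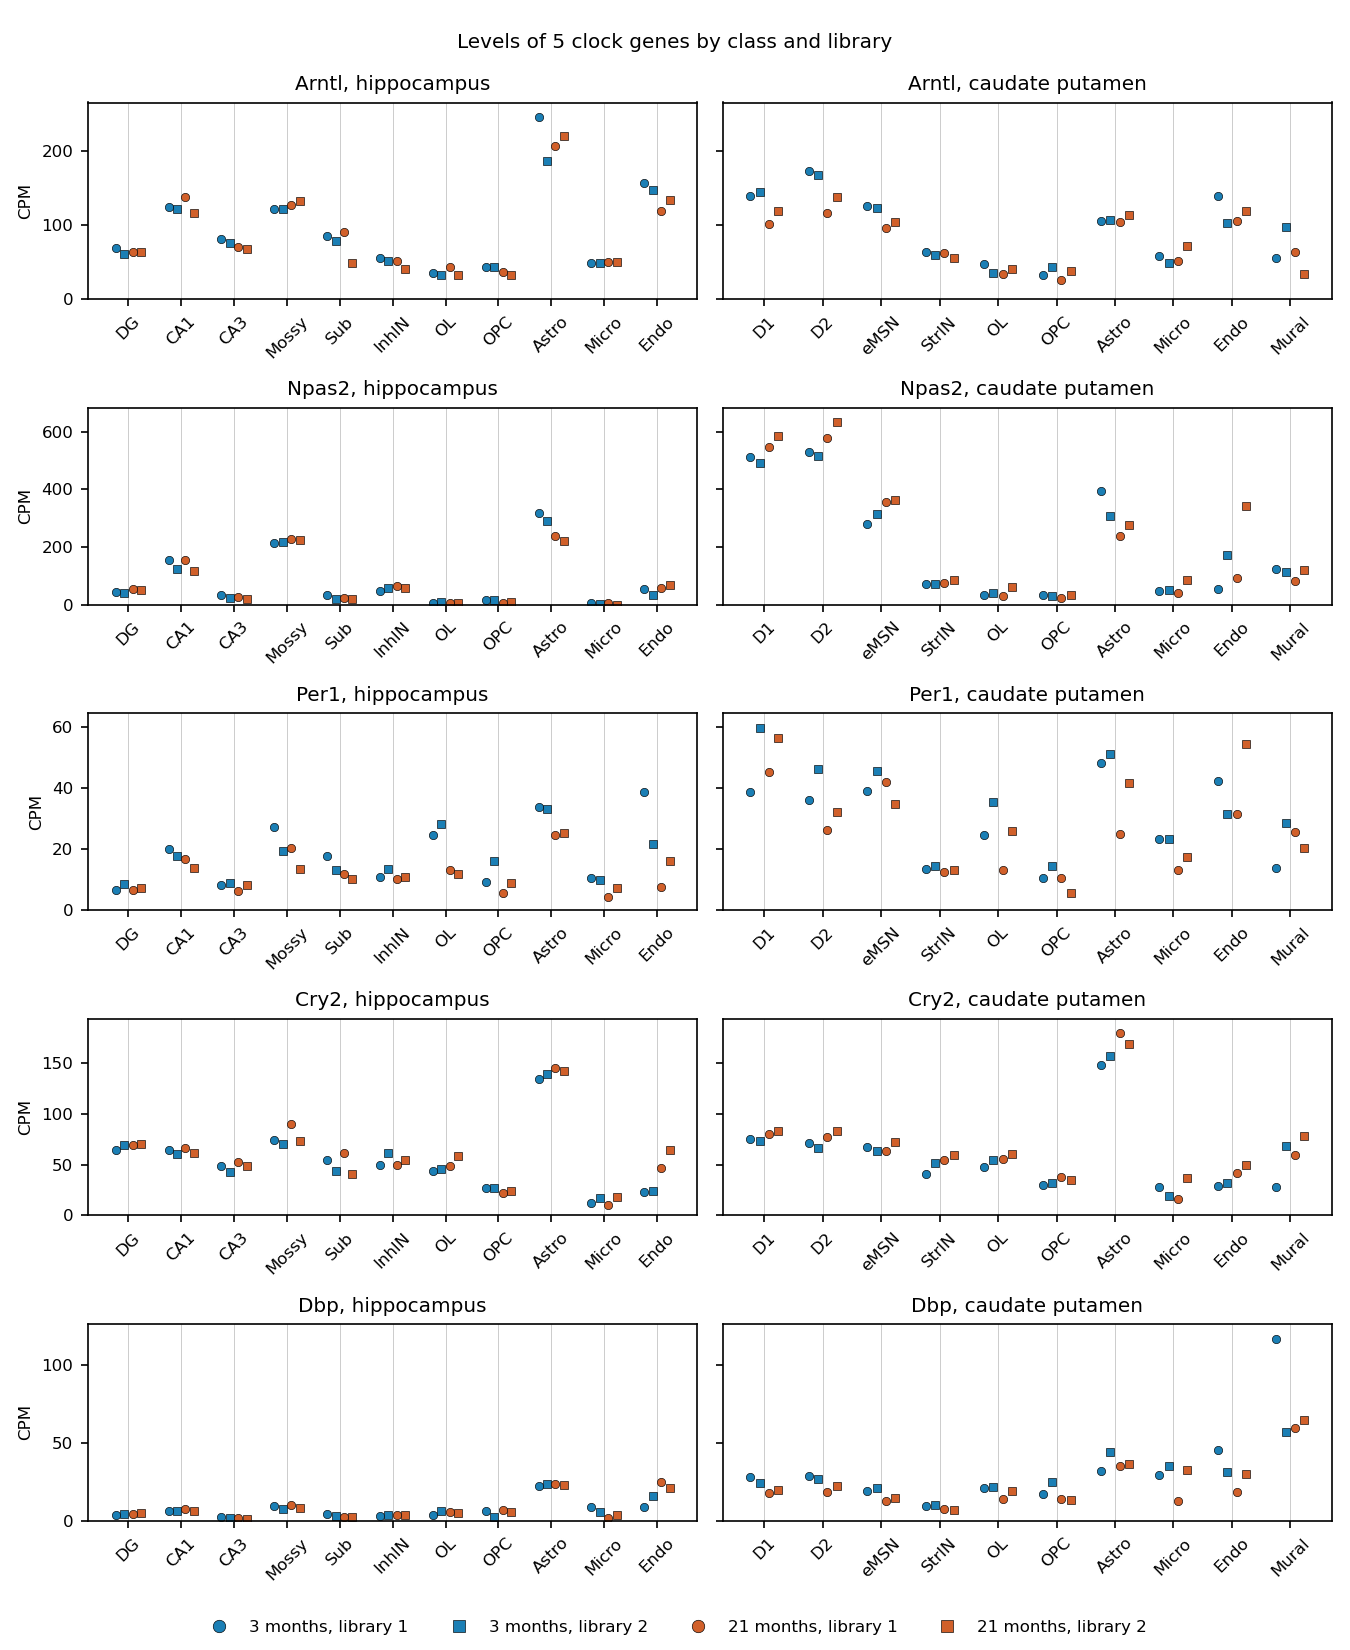
Levels of Arntl, Npas2, Per1, Cry2 and Dbp in CPM (vertical axes, starting at 0) by class (horizontal axes) in the hippocampus and the caudate putamen, 1 point for each library, for dentate granule-like (DG), CA1-like, CA3-like, hilar mossy-like, subiculum-like (Sub), inhibitory interneuron-like (InhIN), D1-like, D2-like and eccentric (eMSN) medium spiny neuron-like, striatal interneuron-like (StrIN), oligodendrocyte-like (OL), precursor-like (OPC), astrocyte-like, microglia-like, endothelial-like and mural-like nuclei. Astrocyte-like nuclei lead for Cry2 in both regions, and D1-like and D2-like neurons lead for Npas2 in the caudate putamen with 491 to 632 CPM.

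Single libraries were compared first, since the time of collection is unknown. In all hippocampal nuclei together, Arntl measured 97.9 and 79.6 CPM in the young and 92.2 and 79.6 CPM in the old libraries, and Npas2 101 and 73.0 against 88.8 and 68.9 CPM. The first library of each age was the higher one for both genes, and the ages overlapped. Per3 ran the other way within the young pair (36.8 and 45.6 CPM) and not within the old pair (44.2 and 43.4 CPM). These sums also depend on the mix of cell types, and the gap within the young pair varied by class. Arntl measured 246 and 186 CPM in astrocyte-like and 69.0 and 60.8 CPM in granule-like nuclei of these libraries, but 121 and 121 CPM in mossy-like and 49.3 and 48.6 CPM in microglia-like nuclei.

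The balance between the opposed phases was summarised for each library as the mean log2(CPM + 1) of Per1, Per2, Per3, Nr1d1 and Dbp minus that of Arntl and Npas2. In all hippocampal nuclei it was -2.80 and -2.33 in the young libraries and -2.54 and -2.50 at 21 months, so the young pair spanned the old pair. Granule-like neurons (-2.48 and -2.00 against -2.47 and -2.39) and astrocyte-like nuclei (-2.91 and -2.51 against -2.66 and -2.59) had the same order, with the first young library lowest and the second young library highest. In the caudate putamen the balance of all nuclei was -3.33 and -3.33 in the young libraries and -3.28 and -3.28 at 21 months, a range of 0.06 against 0.47 in the hippocampus. By class the range over libraries was 0.08 in D1-like to 1.01 in endothelial-like nuclei there, and 0.13 in endothelial-like to 1.42 in microglia-like nuclei of the hippocampus. Oligodendrocyte-like (0.39 and 0.51) and precursor-like nuclei (0.71 and 0.75) had ranges of similar size in the caudate putamen and hippocampus. Over classes, the old and young values of the balance overlapped in 8 of 11 in the hippocampus and 6 of 10 in the caudate putamen.

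**Figure D2:**
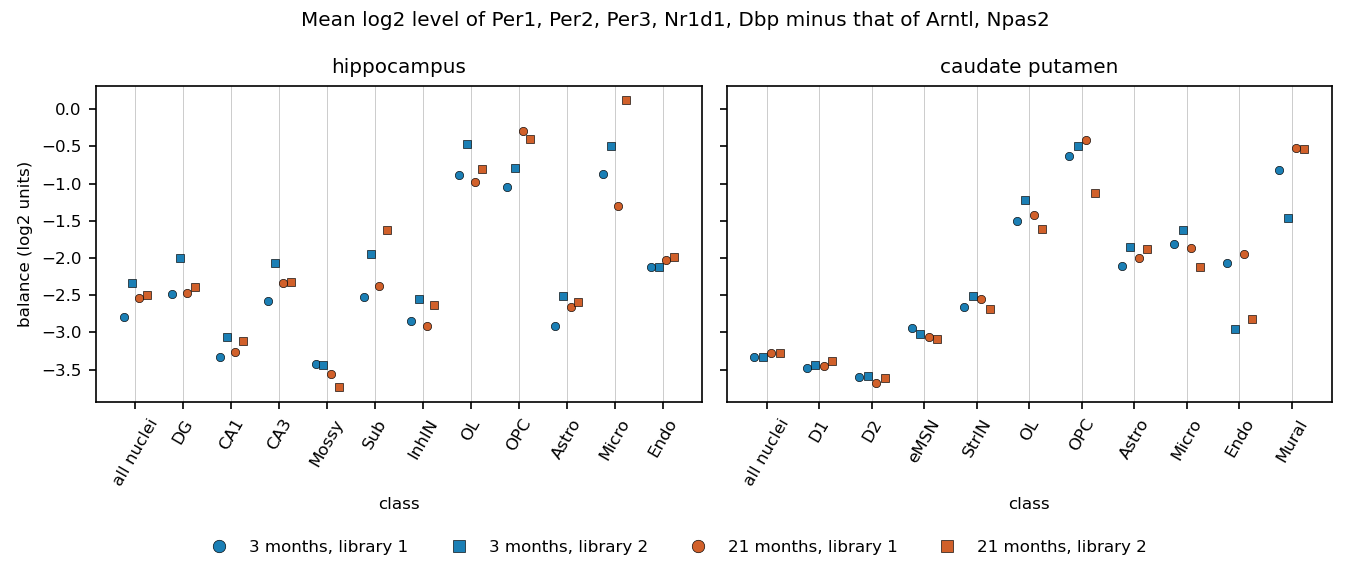
Balance of each library (vertical axis, log2 units: mean of Per1, Per2, Per3, Nr1d1 and Dbp minus mean of Arntl and Npas2) by class in each region, 1 point for each library. Over all nuclei the young hippocampal libraries (-2.80 and -2.33) bracket the old ones, as they do in 4 of 11 classes, and the 4 caudate putamen libraries lie within 0.06, while by class their range runs from 0.08 to 1.01.

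Genes outside the clock that share inputs with it also differed by library. Neuronal activity induces immediate early genes. Over all hippocampal nuclei the sum of 8 of them was 60.5 and 62.4 CPM in young and 36.5 and 38.8 CPM in old libraries. In the caudate putamen it was 203 and 321 against 185 and 259 CPM. Such sums over all nuclei also depend on the mix of cell types. CA1-like nuclei numbered 821 of 10305 and 1109 of 17033 in young and 269 of 8582 and 197 of 6382 in old libraries. Their sum was 145 and 164 against 140 and 142 CPM, and that of granule-like nuclei 24.5 and 32.9 against 18.2 and 19.97 CPM. The part of the mix in the lower old sums was not tested. The summed level of 8 temperature-responsive genes was 302 and 367 against 251 and 257 CPM in the hippocampus and 360 and 341 against 302 and 287 CPM in the caudate putamen, lower in both old libraries of each region. The summed level of 6 glucocorticoid-response genes was 579 and 560 against 505 and 475 CPM in the hippocampus, and 479 and 426 against 440 and 455 CPM in the caudate putamen, where the ages overlapped. The part of these inputs in the age differences of the members was not tested.

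The first comparison asked how the members differed between 21 and 3 months in the hippocampus. Of 102 pairs of a member and a class that passed the low-count filter, 1 passed an adjusted p of 0.05 in the edgeR quasi-likelihood test, where 0.908% of all pairs of a gene and a class passed. Npas2 in granule-like neurons measured 44.5 and 41.1 CPM in the young and 55.4 and 49.2 CPM in the old libraries, without overlap, and 4.01% of genes passed in this class. The log2 fold change was 0.34 (SE 0.08, adjusted p = 0.046, edgeR). The call was lost without the second young library, without either old library, with equal numbers of nuclei per library, and when the trend of each library with gene length was removed, an alternative chosen after seeing the data (adjusted p up to 0.39). Granule-like nuclei fell into 5 clusters whose shares differed with age, for example 62.7% of old and 23% of young granule-like nuclei in the cluster led by Gm6999. In the same neurons 3 of 8 immediate early genes fell, with a list median of -0.77 on the log2 scale, and of 8 temperature-responsive genes 2 fell and 1 rose. Of 6 glucocorticoid-response genes 1 passed, Sgk1, which rose by 0.39 (adjusted p = 0.0089, edgeR). The part of these shifts in the Npas2 difference was not tested.

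Per1 was lower at 21 months in all 11 hippocampal classes tested, but none of these differences passed. In oligodendrocyte-like nuclei it measured 24.6 and 28.2 CPM in the young and 13.2 and 11.9 CPM in the old libraries (log2 fold change -1.02, SE 0.36, adjusted p = 0.20, edgeR). In astrocyte-like nuclei the values were 33.8 and 33.2 against 24.6 and 25.1 CPM. The old libraries lay below the young ones in 8 of 11 classes for Per1, where 25.5% of all pairs of a gene and a class did so. Classes of 1 library share its animals and handling, so these 11 directions are not independent. Per2 was lower in 8 of the 9 classes tested, with a median log2 fold change of -0.30. Arntl and Clock had median log2 fold changes of 0.01 and 0.02 over 11 classes each, and -0.04 and -0.03 with the gene-length trend removed. Nr1d1 and Dbp passed the filter in 8 of 11 classes each, and their medians were -0.02 and 0.20, or 0.07 and 0.36 with the gene-length trend removed. Over the 102 pairs the median was 0.01, against -0.01 over all genes and classes.

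In the caudate putamen, 3 of 91 pairs passed, where 1.21% of all pairs of a gene and a class did, and all 3 were in D2-like medium spiny neurons, where 4.78% of genes passed. Arntl fell from 172 and 167 CPM in the young to 116 and 138 CPM in the old libraries (log2 fold change -0.44, SE 0.09, adjusted p = 0.036, edgeR). Dbp fell from 28.6 and 26.9 CPM to 18.6 and 22.3 CPM (-0.46, SE 0.10, adjusted p = 0.039, edgeR). Per3 rose from 25.3 and 21.6 CPM to 30.4 and 36.6 CPM (0.49, SE 0.11, adjusted p = 0.047, edgeR). None of the 3 genes overlapped between the ages, where 45.5% of all pairs of a gene and a class in this region did not overlap. The 3 were picked by adjusted p on the same values, so the lack of overlap adds no support. Arntl and Dbp, which peak at opposed phases in most tissues, both fell, and the part of collection time in this was not tested. All 3 calls were lost when either young library was left out (adjusted p up to 0.20 over all alternatives), those of Arntl and Dbp also without the first old library and that of Per3 without the second. With the gene-length trend removed the Arntl call alone was left, with equal numbers of nuclei that of Dbp was lost, and with coarser clusters that of Per3. The make-up of the D2-like class moved with age: the cluster led by Chrm3 held 45.2% of its young and 17.7% of its old nuclei, and that led by Nell1 33.1% and 57.4%. Of the temperature-responsive genes 4 of 7 fell in the same neurons, and of the immediate early genes none of 8 passed in edgeR, with 6 at an unadjusted p under 0.05 and a median log2 fold change of -0.79. The part of these shifts in the 3 differences was not tested.

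The other medium spiny neurons had values in the same directions that did not pass. In D1-like neurons Arntl measured 139 and 144 CPM in the young and 102 and 119 CPM in the old libraries (log2 fold change -0.39, adjusted p = 0.089, edgeR), and Dbp 28.2 and 24.1 against 17.6 and 19.98 CPM (-0.50, adjusted p = 0.069, edgeR). Eccentric-like neurons held 125 and 122 against 96.5 and 104 CPM of Arntl and 18.9 and 21.2 against 13 and 14.6 CPM of Dbp. Per3 was at 23.8 and 19.7 against 27.0 and 29.8 CPM in D1-like neurons. Npas2 lay higher in both old libraries in D1-like, D2-like, eccentric-like and interneuron-like nuclei, for example 279 and 313 against 357 and 362 CPM in the eccentric-like ones, and none of these passed. Outside the medium spiny neurons the Arntl values of the ages overlapped, for example 63.8 and 59.2 against 61.6 and 56.1 CPM in striatal interneuron-like and 105 and 107 against 103 and 113 CPM in astrocyte-like nuclei. Still, Arntl had a log2 fold change below 0 in 8 of 10 classes of the caudate putamen, with a median of -0.17. The lowest of these, -0.70, lay outside the medium spiny neurons. Dbp was lower at 21 months in all 9 classes tested of the caudate putamen (8 of 9 with the gene-length trend removed), and the old libraries lay below the young ones in 6 of them, where 23.3% of all pairs did so. For Cry2 all 10 classes had a higher old mean, with the old libraries above the young in 7 of 10, where 22.2% of all pairs did so. Its values in D2-like neurons were 71.6 and 66.4 against 77.5 and 83.5 CPM (log2 fold change 0.20, adjusted p = 0.13, edgeR). Per3 likewise lay higher in 7 of 9 classes without overlap. Per1 had the lowest median of the members there (-0.52), with a lower old mean in 7 of 9 classes and no overlap in 5 of these, and no class passed. Nr1d1 was lower in 5 of 8 classes, with both old libraries below the young in 4 and above in 1. In the caudate putamen the first young and second young libraries were counted with different Cell Ranger versions, 6.1.2 and 7.0.0, and the version and the library cannot be told apart.

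**Figure D3:**
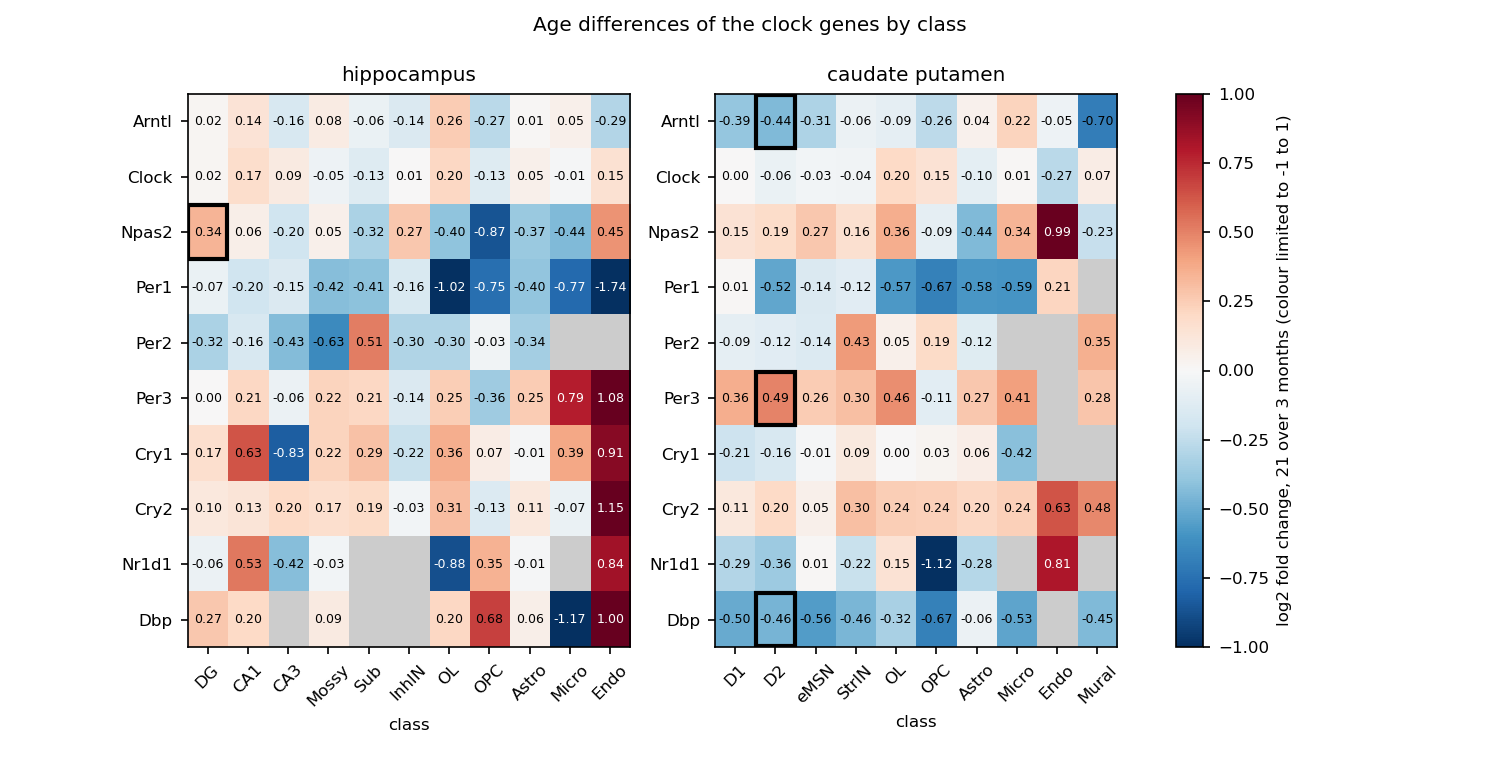
Log2 fold change at 21 over 3 months for each member (rows) and class (columns) in the hippocampus and the caudate putamen, with black frames around the 4 values whose adjusted p was under 0.05 and grey where the low-count filter was not passed. Per1 is below 0 in all 11 hippocampal classes, and Dbp is below 0 in all 9 classes tested in the caudate putamen.

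D1-like and D2-like neurons were set against each other in a joint fit of the same 4 libraries with library as a block, a comparison added after the data had been seen. Of the 10 members, in D2-like neurons 5 were higher and 1 lower than in D1-like neurons, where 26.3% of all genes passed. Arntl was higher by 0.26 (SE 0.02, adjusted p = 1.61e-07, edgeR), and its level was above the D1-like value of the same library in all 4 libraries. Npas2 (0.11, SE 0.02, adjusted p = 0.00013), Per3 (0.20, SE 0.03, adjusted p = 0.00023), Dbp (0.14, SE 0.04, adjusted p = 0.0093) and Nr1d1 (0.23, SE 0.06, adjusted p = 0.0097) were higher by smaller log2 steps in edgeR, and the calls of Dbp and Nr1d1 were lost under DESeq2 and without single libraries. Per1 was lower in D2-like neurons by 0.50 on the log2 scale (-0.50, SE 0.04, adjusted p = 6.18e-06, edgeR). It measured 36.0 and 46.2 CPM in the young and 26.3 and 32.2 CPM in the old libraries of D2-like neurons, below the D1-like values of the same libraries in all 4.

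The age effect of Per1 differed between the types. D1-like neurons held 38.8 and 59.8 CPM at 3 months and 45.4 and 56.4 CPM at 21 months, so the ages overlapped, while both old D2-like values lay below both young ones. The age effect in D2-like minus that in D1-like neurons was -0.54 (SE 0.08, adjusted p = 0.040, edgeR), where 0.17% of 18774 genes passed and no other member did. The call was lost with DESeq2 size factors in edgeR and without either old library (adjusted p up to 0.50). Fos, an immediate early gene, had the same pattern, with 4.64 and 11.5 against 6.42 and 6.51 CPM in D1-like and 4.44 and 8.61 against 2.26 and 2.66 CPM in D2-like neurons (difference -1.08, SE 0.15, adjusted p = 0.012, edgeR). All 8 immediate early genes had a difference below 0, with a median of -0.72, and Fos was the 1 that passed. Cluster shares moved with age in both types, in D1-like neurons from 9.26% to 23.1% in the cluster led by Gpr139 and from 35.5% to 26.5% in that led by Gm42705. The part of these genes, or of the shifts in clusters, in the Per1 difference was not tested.

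**Figure D4:**
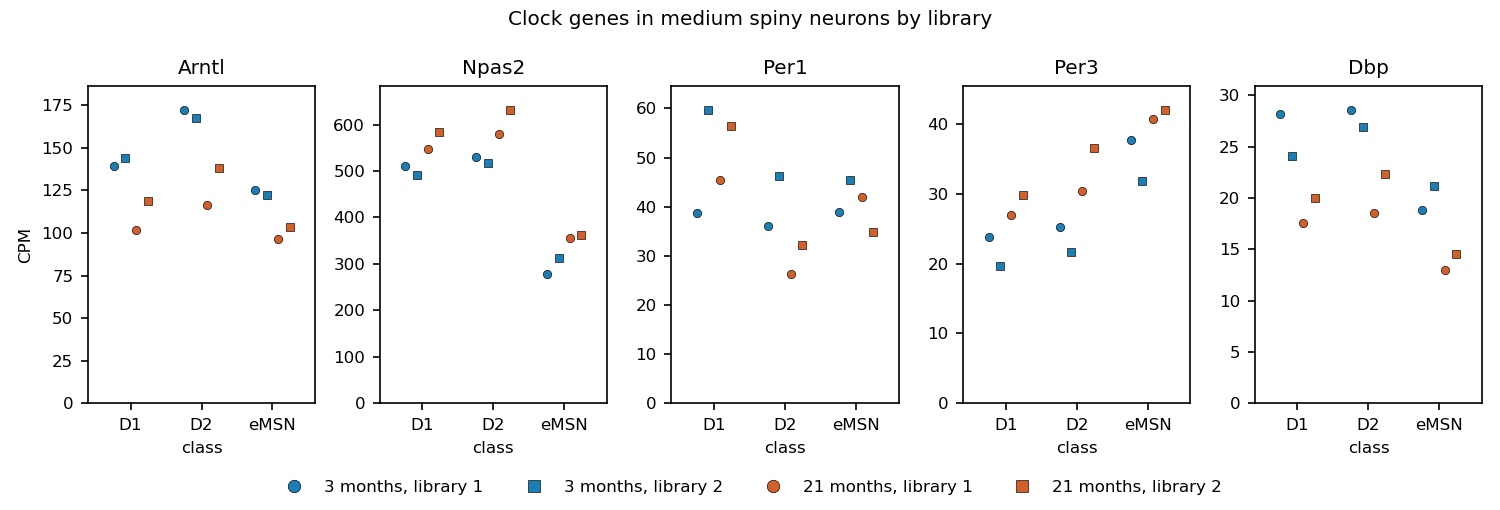
Levels of Arntl, Npas2, Per1, Per3 and Dbp in CPM (vertical axes, starting at 0) in D1-like, D2-like and eccentric medium spiny neuron-like nuclei, 1 point for each library. Both old libraries lie below both young ones for Arntl and Dbp in all 3 types, and for Per1 in D2-like neurons and not in D1-like neurons.

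In the 4 glial classes present in both regions, a fit over all 8 libraries gave the mean of the regions' age effects. Of 38 pairs 1 passed, where 3.43% of all pairs of a gene and a class did. Npas2 fell in astrocyte-like nuclei (log2 fold change -0.40, SE 0.09, adjusted p = 0.027, edgeR). It measured 319 and 290 CPM in young and 239 and 220 CPM in old hippocampal libraries, and 396 and 307 against 237 and 277 CPM in the caudate putamen, so the ages did not overlap in either region. The call was lost without either old hippocampal library, the first young or the first old caudate putamen library (adjusted p up to 0.12). Per1 in astrocyte-like (-0.49, adjusted p = 0.080, edgeR) and oligodendrocyte-like nuclei (-0.80, adjusted p = 0.088, edgeR) did not pass. Beside these, of 7 temperature-responsive genes tested in astrocyte-like nuclei 3 fell and 1 rose: Hspa8, which encodes a heat shock cognate chaperone, fell by 0.77 on the log2 scale (adjusted p = 0.0095, edgeR), and Cirbp, a cold-inducible RNA-binding protein gene, rose by 0.44 (adjusted p = 0.029, edgeR). Of 6 glucocorticoid-response genes 2 fell, among them Tsc22d3, by 0.73 (adjusted p = 0.0027, edgeR). Of 7 immediate early genes 1 fell and 4 had an unadjusted p under 0.05 in edgeR, with a median log2 fold change of -0.86. The part of any of these lists in the Npas2 difference was not tested.

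The difference of the age effects of the regions passed for 0 of 38 pairs by edgeR and by DESeq2, with 1 pair at an unadjusted p under 0.05 by edgeR and 0.0119% of all pairs of a gene and a class called. That pair was Nr1d1 in oligodendrocyte-like nuclei (1.03 on the log2 scale, SE 0.45, adjusted p = 0.72, edgeR). It measured 4.20 and 6.52 against 3.56 and 2.08 CPM in the hippocampus and 6.43 and 6.49 against 6.16 and 7.66 CPM in the caudate putamen.

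The regions were compared in the same glial fits. In glia of the caudate putamen against the hippocampus 12 of 38 pairs passed, 11 of them higher in the caudate putamen, where 12.6% of all pairs of a gene and a class passed and 7.21% were higher. The direction was shared by Npas2 and Dbp, a partner of Arntl and a clock output. In oligodendrocyte-like nuclei Npas2 measured 5.88, 7.23, 5.65 and 3.90 CPM in the 4 hippocampal libraries and 31.5, 40.1, 29.3 and 59.8 CPM in the 4 caudate putamen libraries (log2 difference 2.78, SE 0.29, adjusted p = 0.00035, edgeR). Dbp measured 3.64, 5.99, 5.86 and 5.19 against 20.8, 21.9, 14.0 and 19.0 CPM there (1.80, SE 0.18, adjusted p = 5.32e-05, edgeR). For both genes all 4 caudate putamen libraries lay above the hippocampal ones. In microglia-like nuclei Npas2 measured 5.28, 3.24, 6.18 and 0 CPM in the hippocampus and 46.5, 50.4, 39.9 and 84.1 CPM in the caudate putamen (3.96, SE 0.45, adjusted p = 1.76e-05, edgeR). With 1 hippocampal library at 0 UMIs, the Npas2 value ran from 3.41 to 6.23 over the alternatives. Dbp (2.58, SE 0.44, adjusted p = 0.00047, edgeR) and Per1 (1.29, SE 0.36, adjusted p = 0.033, edgeR) were also higher in these nuclei. The Per1 call was lost in 8 of 15 alternatives, DESeq2 and 6 left-out libraries among them (adjusted p up to 0.28), and its value ran from 1.13 to 2.26. In oligodendrocyte precursor-like nuclei Npas2 (1.25, SE 0.25, adjusted p = 0.0010, edgeR) and Dbp (1.73, SE 0.35, adjusted p = 0.0011, edgeR) were higher, and both calls were lost with equal numbers of nuclei per library (adjusted p = 0.093 and 0.11, edgeR), while the Npas2 value ran from 0.97 to 2.61 over the alternatives. Per2 was higher in oligodendrocyte-like nuclei, at 3.92, 6.88, 5.23 and 3.38 CPM in the hippocampus against 8.19, 8.37, 7.36 and 9.21 CPM (0.71, SE 0.21, adjusted p = 0.047, edgeR). That call was lost in 10 of 16 alternatives, DESeq2, equal numbers of nuclei and the replicate number as a block among them, and its value ran from 0.60 to 0.94. No library of one region reached the range of the other for Npas2 or Dbp in these 3 classes. The low-count filter could be met by the libraries of 1 region alone. Hippocampal microglia-like nuclei held at most 6.18 CPM of Npas2, 8.80 of Dbp and 10.6 of Per1, and hippocampal precursor-like nuclei at most 6.86 CPM of Dbp. These pairs, counted among the 11, may have been tested through the caudate putamen alone. A call could then only be higher there.

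Medium spiny neurons held a mean of 549 CPM of Npas2 and granule-like neurons 47.6 CPM, and marker RNA of both neurons was measured in the glial sums. Of 9 medium spiny neuron markers, none was at 0 in the oligodendrocyte-like sums of that region. Their level there was 6.30% to 80.0% of that in medium spiny neurons, with a median of 15.5%, and Npas2 stood at 7.32%. In precursor-like nuclei the median was 13% and Npas2 stood at 5.33%, and in microglia-like nuclei 16.4% and 10.1%. In the caudate putamen Npas2 lay below the median of the markers in all 3 classes. Dbp stood at 81.3%, 73.8% and 118% of the neuronal level in the same 3 classes, where the highest of the 9 markers, Ppp1r1b, stood at 80.0%, 43.5% and 95.9%. Immediate early genes passed in 22 of 25 pairs in the same contrast, all higher in the caudate putamen. In hippocampal oligodendrocyte-like, precursor-like and microglia-like nuclei 8 granule neuron markers stood at medians of 14.7%, 12.2% and 20.2% of the granule-like level. Npas2 stood at 11.9%, 26.2% and 7.72% of that level, above the median in precursor-like nuclei. Dbp stood at 124%, 126% and 118%, where the highest marker, C1ql2, stood at 120%, 73.7% and 129%. The part of neuronal RNA in these regional differences was not tested.

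In astrocyte-like nuclei 3 members of 10 were higher and 1 lower in the caudate putamen, where 11.3% of all genes of this class were higher and 10.2% lower. Arntl was the lower one, at 105, 107, 103 and 113 CPM against 246, 186, 206 and 220 CPM in the hippocampus (log2 difference -1.02, SE 0.10, adjusted p = 1.38e-05, edgeR), and this held under all 16 alternatives. No other pair of a member and a glial class was called lower, and a difference between the classes was not tested. Dbp was higher, at 32.3, 44.1, 35.5 and 36.8 against 22.2, 23.9, 23.5 and 23.3 CPM (0.65, SE 0.12, adjusted p = 0.0012, edgeR), also under all 16 alternatives. Per1 (0.46, SE 0.14, adjusted p = 0.032, edgeR) and Per3 (0.31, SE 0.09, adjusted p = 0.023, edgeR) were higher, and leaving out single libraries ended both calls. The Per1 call was also lost with equal numbers of nuclei per library, and the Per3 call under DESeq2. Over the alternatives the Per1 value ran from 0.27 to 0.63 and the Per3 value from 0.23 to 0.39. Astrocyte-like Npas2 did not pass (0.16, SE 0.09, adjusted p = 0.21, edgeR), nor did Clock, Cry1, Cry2, Nr1d1 or Per2 (adjusted p = 0.054 to 0.36). Medium spiny neuron markers in these nuclei stood at a median of 10.2% of the neuronal level. Astrocyte-like Arntl in the caudate putamen (107 CPM) lay below the neuronal level of 137 CPM, and Dbp (37.1 CPM) above the neuronal level of 23.3 CPM. No time of collection is given for either region, and its part in these differences was not tested.

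**Figure D5:**
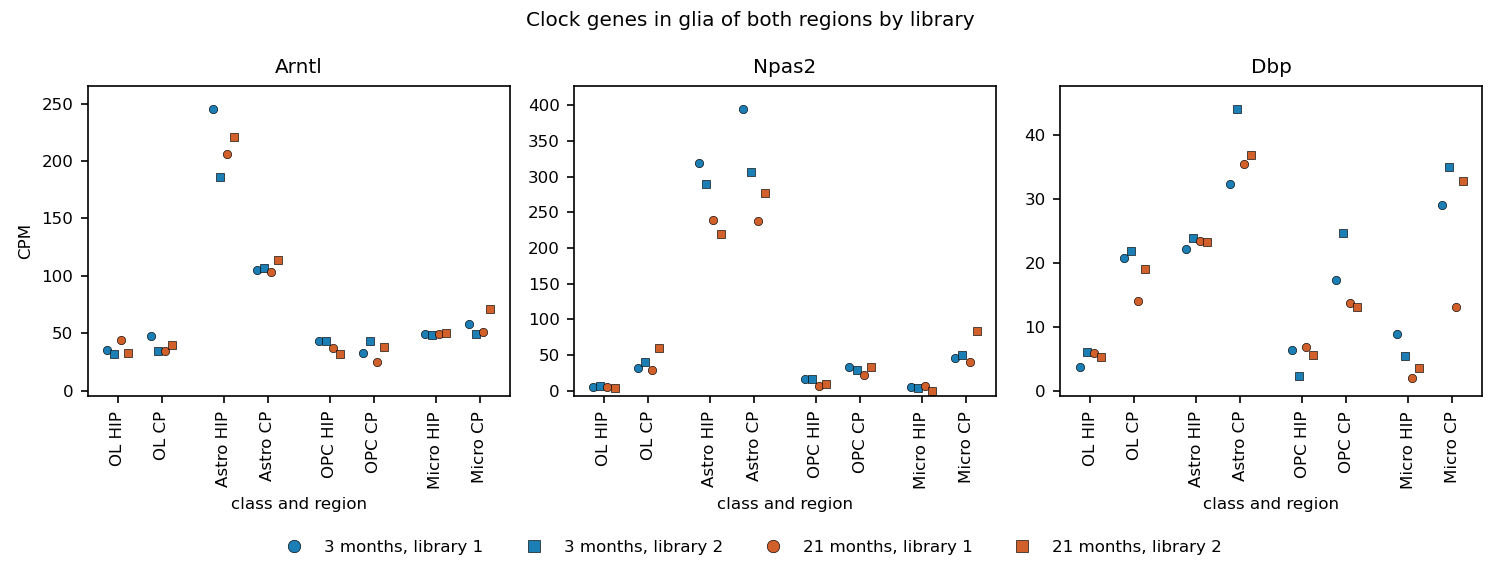
Levels of Arntl, Npas2 and Dbp in CPM (vertical axes) in oligodendrocyte-like (OL), astrocyte-like (Astro), precursor-like (OPC) and microglia-like (Micro) nuclei of the hippocampus (HIP) and caudate putamen (CP), 1 point for each library. Arntl in astrocyte-like nuclei is lower in the caudate putamen (103 to 113 CPM against 186 to 246 CPM), and Npas2 and Dbp in the other classes are higher there.

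Among 20 further genes of the clock pathway, which include the ROR receptors that activate Arntl, the D-box factors Tef and Hlf and the kinases and ligases that set the life of PER and CRY proteins, the shares that passed in the age and region comparisons are given beside those of all pairs of a gene and a class. In D2-like against D1-like neurons 7 of 19 were higher and 3 lower, where 26.3% of all genes passed, and none passed for a difference in the age effect between the types, where 0.17% did. In the hippocampus 2 of 175 pairs passed (1.14% against 0.908% of all pairs), both of them Rora higher at 21 months, in granule-like neurons (0.27, adjusted p = 0.020, edgeR) and in precursor-like nuclei (0.36, adjusted p = 0.028, edgeR). Of 159 pairs in the caudate putamen 2 passed (1.26% against 1.21%), both in D2-like neurons: Hlf, a D-box factor related to Dbp, rose by 0.36 (adjusted p = 0.040, edgeR), and Csnk1e, a kinase of PER proteins, fell by 0.46 on the log2 scale (adjusted p = 0.031, edgeR). Hlf and Dbp thus moved in opposite directions in the same neurons. In the mean over regions 3 of 64 glial pairs passed (4.69% against 3.43%), Rora and Hlf in precursor-like nuclei and Bhlhe40, a repressor of the activators, in astrocyte-like nuclei, all higher at 21 months. Between regions 8 of 64 pairs passed (12.5% against 12.6%), 4 in each direction. In astrocyte-like nuclei Hlf (0.75 on the log2 scale, adjusted p = 1.11e-05, edgeR) and Ciart (1.06, adjusted p = 0.0042, edgeR), a repressor of the activators, were higher in the caudate putamen, as was Cipc (0.44). Of the 3 lower there, Bhlhe40 (-0.27) and Bhlhe41 (-0.42) are repressors of the activators.

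Genes whose level followed Dbp from library to library were sought over 28 values, from 7 class and region combinations in the same 8 libraries, after the mean of each class was removed. Of 6147 genes with a mean of at least 10 CPM in every combination, Coro7 (r = 0.76), Snhg9 (0.74), Irak1 (0.72), Trappc6b (0.70), Nsun2 (0.70) and Zfr (0.70) were most alike, and Dip2a (-0.74), Tubgcp4 (-0.74), Actr8 (-0.73) and Cbx1 (-0.72) least. Of the members with enough counts, Arntl stood at rank 281 (r = 0.49), Cry1 at 1518 (0.24), Cry2 at 4352 (-0.14), Per3 at 4736 (-0.20) and Clock at 5283 (-0.30). Dbp itself did not meet that limit, with means of 4.19 CPM in granule-like and 5.17 CPM in hippocampal oligodendrocyte-like nuclei. Its lowest value in a library was 3.38 CPM. These values share libraries and depth and are a description. When the mean of each age was removed as well, none of the 6 genes stayed among the 6 most alike, Per3 moved to r = 0.59 and Arntl to 0.06.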

How the data were processed

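Single-nucleus RNA was measured in 8 libraries. The authors deposited raw counts of UMIs per gene and barcode, with no normalization. Cell Ranger 6.1.2 made 7 of the tables and 7.0.0 made 1, per the file headers, whereas the submitters' processing notes name 4.0.0 and build mm10. Whether introns or strand were used in counting is not given in the sources used here. Gene positions came from GENCODE vM21 (99.6% of IDs matched) and promoter sequences from RefSeq (GRCm38.p6).

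Nuclei with under 500 genes or over 5% of mitochondrial UMIs were removed. Scrublet (scanpy 1.11.5) removed 10685 doublets by library. In the second young hippocampal library its own threshold called 0.0694%, so the expected share was used. Regions were clustered apart (3000 variable genes, 40 components, 20 neighbours, Leiden 1.0), and clusters were named from listed markers (10 CPM, log2 fold of 1, 3 markers), with limits set after seeing the data and before any expression test. Classes with 20 nuclei in every library were summed per library and compared by quasi-likelihood in edgeR 4.0.16 (TMM, filterByExpr, Benjamini-Hochberg adjustment over the genes of a class), glia over 8 libraries and other classes by region. DESeq2 1.42.0 was an alternative.

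On simulated counts the test recovered 24.2% to 42.4% of genes changed by 0.5 on the log2 scale and 88.1% to 97% of those changed by 1. This was done in 3 classes, granule-like, D2-like and oligodendrocyte-like nuclei. Every simulated gene had the same dispersion, and only genes above a minimum mean count were changed. The shares therefore do not carry over to members with fewer counts or more spread between libraries, or to smaller classes. All members were reported in every class. Pairs of a member and a class past the adjusted p, or the lowest where there was none, are given with their difference, SE and adjusted p, beside the genes most like Dbp and 4 lists (clock pathway, immediate early, glucocorticoid and temperature genes). The members and lists were chosen with earlier results of these data known. The values of 1 gene of the pathway list are not reported here.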

Additional observations from a re-analysis of the deposited data

Results flagged for a closer look

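The age effect of Per1 in D2-like minus D1-like medium spiny neurons stood out because the test of the difference itself passed, at -0.54 (SE 0.08, adjusted p = 0.040, edgeR, a joint fit added after the data had been seen). In oligodendrocyte precursor-like nuclei Per2 was flagged without a test. Both old libraries lay below both young ones in the hippocampus (40.5 and 41.9 CPM young, 37.1 and 39.7 CPM old) and above them in the caudate putamen (41.4 and 45.8 CPM young, 46.2 and 52.1 CPM old). Over all pairs of a gene and a class, 25.5% had both old libraries below both young ones in the hippocampus and 22.2% had them above in the caudate putamen. The share with both directions at once was not counted, so the flag does not set these nuclei apart from what other genes do. The fitted difference of the age effects was 0.22 (SE 0.32, adjusted p = 0.97, edgeR) and did not pass. Cry2 in the same nuclei had the same opposite directions, with 27.0 and 26.6 CPM young and 22.0 and 24.2 CPM old in the hippocampus and 29.9 and 31.9 CPM young and 37.8 and 34.4 CPM old in the caudate putamen. Its fitted difference was 0.38 (SE 0.39, adjusted p = 0.95, edgeR) and did not pass.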

How the results depend on the processing

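The number of pairs of a member and a class called with age in the hippocampus, 1, was 0 with equal nuclei per library and with the gene-length trend removed, 4 with no low-count filter, and 0 to 2 when single libraries were left out. In the caudate putamen the count of 3 was 6 by DESeq2, 9 with no filter, 1 with the gene-length trend removed, and 0 to 3 without single libraries. The mean age effect in glia, 1 call, gave 2 by DESeq2, 4 with no filter, and 0 to 3 without single libraries. The age difference between D2-like and D1-like neurons, 1 call, gave 0 with DESeq2 size factors in edgeR and 0 to 1 without single libraries. The 12 calls between regions ranged from 8 to 18 over all alternatives, the 6 calls between D2-like and D1-like neurons from 4 to 7, and the difference of age effects between regions stayed at 0 calls. The gene-length trend and all D2-like against D1-like fits were chosen after seeing the data. Of 338 settings over 25 single results, 273 kept the call or its absence, 65 lost the call and 0 turned the direction. No scaling moved the median of all genes by over 0.03 on the log2 scale. Microglia-like nuclei gave no value in both regions with coarser clusters, where the hippocampal cluster had no name. Leaving out a library left 1 in its group, assumed to vary like the others.

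With the replicate number as a block, 2 pairs were called with age in the hippocampus, 8 in the caudate putamen, 3 in the glial mean, 0 in the difference of age effects and 12 between regions. These 12 did not include Per2 in oligodendrocyte-like nuclei, which was called without the block. The labels tie the numbers to no animal, and the correlation of same-numbered libraries was 0.011 to 0.63 over the 10 classes of the caudate putamen, above 0 in all of them, and -0.23 to 0.18 over those of the hippocampus. With 2 numbers a group, these values do not settle whether the numbers pair libraries.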
